A study of Mus musculus with 2 samples.

Results

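The 9 genes examined here in mouse myotubes encode enzymes that write, copy and remove CpG methylation, and some of their partner and related proteins. They were the DNA methyltransferase family genes Dnmt1, Dnmt3a, Dnmt3b and Dnmt3l, the Tet genes Tet1, Tet2 and Tet3, and the Uhrf genes Uhrf1 and Uhrf2. The genes were chosen by name, not by their values, out of 55413 in the annotation. Within them, every CpG cytosine read at least 5 times in siCon and at least 5 times in siH19 was used, in CpG islands, within 1 kb of an annotated start or in the rest of the gene, unless it lay in one of the CCGG and TCGA sites at which the DNA had been cut. This gave 1440 cytosines at 856 CpGs, out of 1850635 cytosines in the genome. The 9 genes had 16 promoters when starts within 500 bp of each other were taken as 1, and 16 computed CpG islands.

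The DNA came from C3H mouse myoblasts that had been differentiated into myotubes in low-serum medium, transfected with small interfering RNA and harvested 48 h later. The siCon myotubes received a control small interfering RNA and the siH19 myotubes one against the long non-coding RNA H19. The assay was reduced representation bisulfite sequencing, which reads the CpG-rich ends of restriction fragments. There was 1 library per group, so the tests compare the reads of 2 libraries and not the conditions, and differences between cultures and the knockdown cannot be told apart. The H19 transcript is not measured by this assay, so the knockdown could not be checked.

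Dnmt1 copies methylation onto the new strand after replication, and Uhrf1 binds hemimethylated CpGs and brings Dnmt1 to them. Dnmt3a and Dnmt3b methylate CpGs that carried no mark, and Dnmt3l, which has no catalytic activity of its own, stimulates both. The Tet enzymes oxidise the methyl group to hydroxymethyl and further, which leads to its loss. Bisulfite does not separate methyl from hydroxymethyl cytosine, so "methylated" below covers both. A CpG-rich promoter of an active gene is usually free of methylation while the gene body is methylated, but methylation does not by itself measure expression.

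In both libraries most promoters of the 9 genes were nearly free of methylation, and most bodies were methylated. Of the 13 promoters with at least 5 cytosines, 9 were under 10% methylated in siCon by summed reads, 2 lay between 10 and 70%, and 2 were over 70%. The 9 low ones belonged to Dnmt1, Uhrf1 (both windows), Uhrf2, the long form of Dnmt3a, Dnmt3b, Tet2 and Tet3 (both starts). Uhrf2 was under 10% only by summed reads, at 5.54% in siCon. The unweighted mean over its cytosines was 17.4% in siCon and 17.9% in siH19. The other 4 were a start upstream of Dnmt1, the start of the short form of Dnmt3a, the start of Dnmt3l and the annotated start of Tet1. These are 69.2, 15.4 and 15.4% of the 13, and over all 22290 promoters tested the shares were 59.5, 30.8 and 9.77%. No promoter, island or body of the 9 genes met the threshold for a difference between siH19 and siCon.

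**Figure D1:**
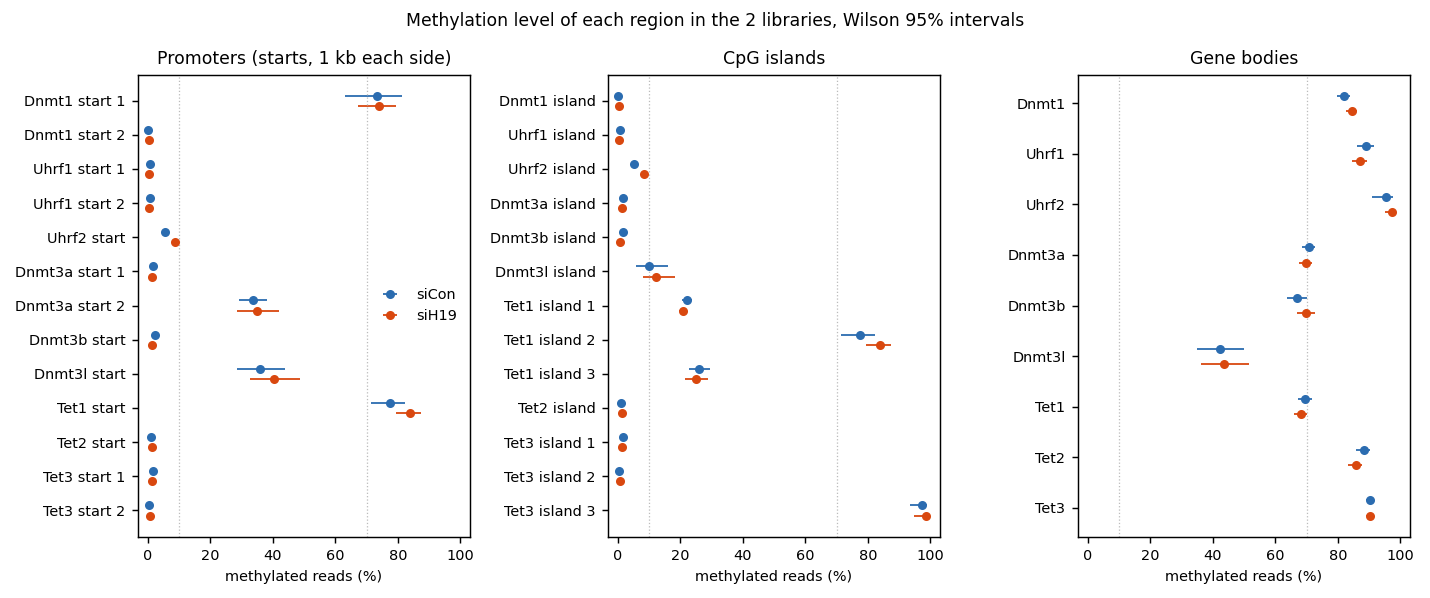
Share of methylated reads (x axis, %) in the promoters, CpG islands and bodies of the 9 genes, in siCon (blue) and siH19 (orange), 1 library each, with Wilson 95% intervals and dotted lines at 10 and 70%. Starts and islands are numbered in the direction of transcription, and the points of both libraries lie close together in every row.

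Dnmt1, Uhrf1 and Uhrf2, the genes of the maintenance machinery and its relative, had unmethylated DNA at or near a start. Uhrf2 also held methylated DNA close by, and Dnmt1 in the window of a separate start farther upstream. The sequences below, from the GRCm38 reference on the strand of the gene, show an unmethylated and a methylated stretch of Dnmt1 and of Uhrf2, with the CpGs measured in capitals.
Dnmt1, first exon and intron, chr9:20952664-20952780, minus strand: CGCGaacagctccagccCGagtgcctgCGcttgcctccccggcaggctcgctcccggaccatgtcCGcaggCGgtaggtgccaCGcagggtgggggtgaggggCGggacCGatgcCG
Dnmt1, upstream start, chr9:20958899-20958939, minus strand: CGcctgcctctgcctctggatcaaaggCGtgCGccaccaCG
Uhrf2, upstream of the start, chr19:30029915-30030137, plus strand: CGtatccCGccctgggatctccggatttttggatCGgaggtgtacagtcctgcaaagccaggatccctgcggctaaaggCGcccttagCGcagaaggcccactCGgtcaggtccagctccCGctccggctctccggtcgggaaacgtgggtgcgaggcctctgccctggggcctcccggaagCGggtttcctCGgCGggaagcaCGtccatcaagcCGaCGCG
Uhrf2, first intron, chr19:30031250-30031319, plus strand: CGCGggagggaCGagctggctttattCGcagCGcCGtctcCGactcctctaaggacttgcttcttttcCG

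Dnmt1 lies on the minus strand of chromosome 9, with starts annotated around 20952979 and, farther upstream, at 20959888. The oocyte form of the enzyme is known to start upstream of the somatic one. In the window of the downstream start 27 of 90 CpGs were measured, at 52 cytosines. Methylated reads made up 0.195% in siCon (Wilson 95% interval 0.0758 to 0.4997%, 2054 reads) and 0.499% in siH19 (0.263 to 0.947%, 1802 reads). Only 1.93% of all promoters in the genome had as low a level in siCon. The Dnmt1 stretch printed from the first exon, with 13 CpGs of which 10 were measured, had no methylated read among 624 in siCon, which allows up to 0.481%, and 0.142% in siH19. No cytosine of the window exceeded 2.33% in siCon or 3.70% in siH19.

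The upstream window of Dnmt1 was measured only at the 4 CpGs of the shorter stretch printed, 949 to 989 bp downstream of the start, in a repeat. There 73.3% of 86 reads were methylated in siCon and 73.9% of 199 in siH19. Its cytosines ranged from 37.5 to 100% in siCon and from 45.2 to 91.7% in siH19, so the level was uneven over these few bases. The 2 strands also differed within siCon, with plus-strand cytosines 28.9 points below their partners (95% interval -44.7 to -13.0), against -10.1 points (-21.1 to 0.959) in siH19. The window stood above 91.2% of promoters, and the difference between libraries was -0.374 points (-10.8 to 10.0).

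Uhrf1 has 2 neighbouring starts on chromosome 17, at 56303321 and 56304313, whose windows share 65 cytosines and so give nearly the same values. At the second, 0.762% of 3150 reads were methylated in siCon and 0.490% of 2655 in siH19. The highest cytosine reached 6.90% in siCon and 2.90% in siH19.

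Uhrf2, a relative of Uhrf1, held a boundary between methylated and unmethylated DNA inside its promoter, at chr19:30029513-30031513. With distances counted from the start and negative upstream, the 18 cytosines from -795 to -494 bp were methylated at 76.9 to 100% in siCon and 66.7 to 100% in siH19. At -478 bp the level was 41.7% in siCon and 33.3% in siH19, and at its partner on the other strand 7 of 14 reads and 11 of 21 were methylated. The next 7 cytosines, from -416 to -377 bp and all on the plus strand, ranged from 0 to 66.7% at 5 or 6 reads in siCon and from 0 to 75.0% at 24 to 26 reads in siH19. No cytosine between -377 and -53 bp was measured, so the exact place and sharpness of the boundary are not known. From -53 to 281 bp, 74 cytosines held 0.370% methylated reads of 3247 in siCon and 0.450% of 2669 in siH19. The upstream Uhrf2 stretch printed, from -598 to -376 bp, runs from the methylated side across these intermediate cytosines, and the other lies on the unmethylated side. In the upstream one 74.5% of reads were methylated in siCon and 67.7% in siH19, against 1.64 and 1.12% in the first intron. Both are CpG-rich, with 22 CpGs in 223 bases and 8 in 70.

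Because of this boundary the promoter level of Uhrf2 depends on where the reads fell. Summed over the window it was 5.54% in siCon and 8.80% in siH19, but the methylated side had 276 reads in siCon and 517 in siH19. With each cytosine weighted alike in both libraries (the Mantel-Haenszel difference used below) the libraries differed by 0.00243 points (-0.510 to 0.515). The boundary is visible in the plot of cytosines along the promoter windows.

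**Figure D2:**
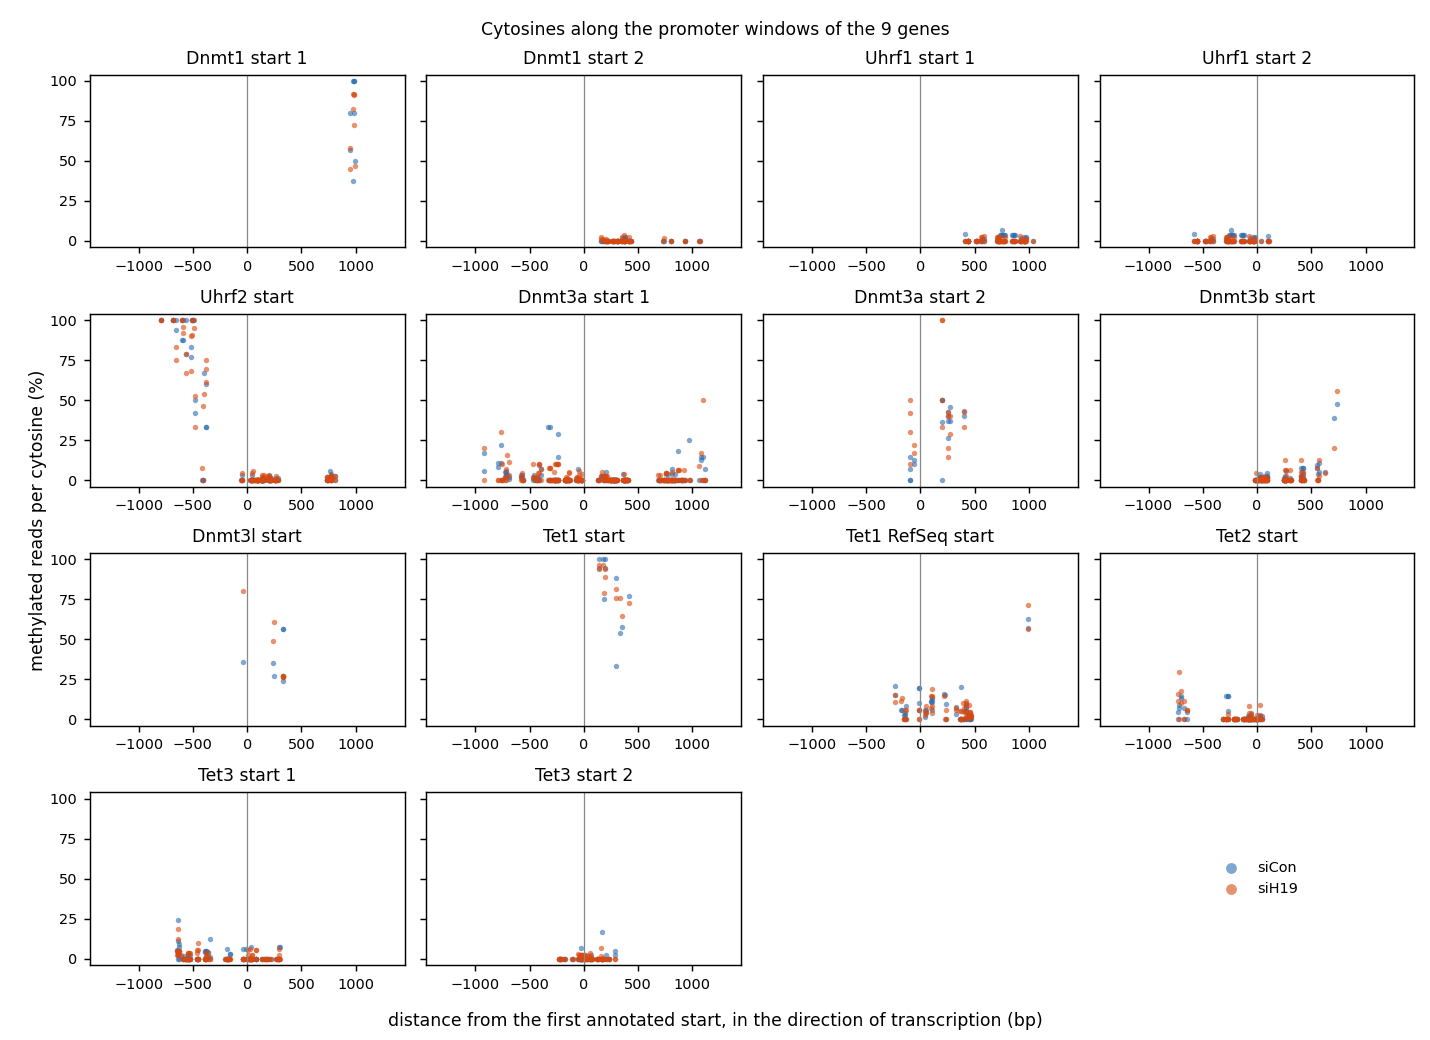
Share of methylated reads of each cytosine (y axis, %) against its distance from the first annotated start in the direction of transcription (x axis, bp), in siCon (blue) and siH19 (orange), 1 panel per promoter window. Uhrf2 drops from near 100% upstream to near 0% at the start, and the points of Dnmt1 start 2, Uhrf1 and Tet3 lie along the bottom.

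Among the Dnmt3 genes, the 2 starts of Dnmt3a differed from each other, Dnmt3b was low and Dnmt3l intermediate. The stretches below, again with measured CpGs in capitals, show the unmethylated start of the long form of Dnmt3a beside the partly methylated starts of its short form and of Dnmt3l.
Dnmt3a, long form, chr12:3806785-3806965, plus strand: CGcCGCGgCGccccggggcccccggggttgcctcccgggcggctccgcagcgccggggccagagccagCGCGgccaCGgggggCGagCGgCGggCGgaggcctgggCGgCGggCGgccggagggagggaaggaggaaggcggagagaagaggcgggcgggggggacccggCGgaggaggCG
Dnmt3a, short form, upstream, chr12:3891631-3891667, plus strand: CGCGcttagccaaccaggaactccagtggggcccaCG
Dnmt3a, short form, downstream, chr12:3891923-3892126, plus strand: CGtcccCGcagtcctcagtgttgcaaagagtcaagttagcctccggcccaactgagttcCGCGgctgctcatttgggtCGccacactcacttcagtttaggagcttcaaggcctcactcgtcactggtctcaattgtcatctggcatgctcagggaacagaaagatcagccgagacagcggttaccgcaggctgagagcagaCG
Dnmt3l, first intron, chr10:78042529-78042617, plus strand: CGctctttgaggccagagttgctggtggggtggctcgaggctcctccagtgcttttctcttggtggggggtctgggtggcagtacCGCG

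The long form of Dnmt3a starts at chr12:3807030 in an island of 2327 bp, and was the promoter with the most cytosines measured, 231. Methylated reads made up 1.83% of 5785 in siCon (1.52 to 2.21%) and 1.44% of 7336 in siH19 (1.20 to 1.74%). Within it the level fell towards the start, from 10.0% in siCon and 9.09% in siH19 between -1000 and -750 bp to 0.897 and 0.912% in the last 250 bp. The stretch printed, from -245 to -65 bp, had 28 CpGs in 181 bases and levels of 0.922 and 0.990%.

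The short form of Dnmt3a, which lacks part of the N-terminal end, starts far downstream at 3891728 in DNA outside any island. There 9 of 74 CpGs were measured, and 33.6% of 428 reads were methylated in siCon (29.3 to 38.2%) and 34.9% of 189 in siH19 (28.5 to 42.0%). The 6 cytosines from -97 to -61 bp had 9.09% of 66 reads methylated in siCon (4.23 to 18.4%) and 27.8% of 79 in siH19 (19.2 to 38.6%), which was not tested apart from the window. The 12 cytosines 195 to 398 bp downstream had 38.1% of 362 and 40.0% of 110. The difference over the window was 5.37 points (-3.05 to 13.8). It was 12.4 points with unweighted means of the cytosines, and -1.99 points with at least 10 reads per cytosine, which left 7 of the 18.

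Dnmt3b had 1 promoter, at chr2:153649450, where 4 annotated start positions lie together. It held 2.33% methylated reads of 4553 in siCon (1.93 to 2.81%) and 1.37% of 3879 in siH19 (1.05 to 1.78%). Its 2 highest cytosines lay at the downstream end, 712 and 733 bp from the start, with 16 of 41 and 19 of 40 reads methylated in siCon and 5 of 25 and 14 of 25 in siH19. Every other cytosine of the window was at or under 12.5% in both libraries.

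Dnmt3l was measured at only 4 of 34 CpGs around its first start, chr10:78042287, which lies outside any island. The level was 35.8% of 148 reads in siCon (28.5 to 43.8%) and 40.6% of 143 in siH19 (32.9 to 48.8%). Single cytosines ranged from 23.8 to 56.2% in siCon and from 26.7 to 80.0% in siH19, the latter at 5 reads. An island of 558 bp farther into the gene was lower, at 9.92% of 131 reads and 12.3% of 154. No cytosine of the 2 other annotated starts of Dnmt3l, at 78049842 and 78055335, was measured, so their level is not known from these libraries.

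The Tet genes differed from each other. Tet2 and Tet3 had unmethylated starts, while the GENCODE start of Tet1 was methylated and an island farther upstream was in part unmethylated. The stretches below show these parts of Tet1 on the minus strand.
Tet1, coding exon, chr10:62879594-62879872, minus strand: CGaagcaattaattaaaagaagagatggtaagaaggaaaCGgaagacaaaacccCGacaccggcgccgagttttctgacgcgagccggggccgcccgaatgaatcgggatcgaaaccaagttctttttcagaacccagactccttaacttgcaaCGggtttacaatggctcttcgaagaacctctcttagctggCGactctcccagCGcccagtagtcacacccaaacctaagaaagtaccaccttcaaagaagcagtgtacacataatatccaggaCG
Tet1, first intron, near the start, chr10:62886879-62887103, minus strand: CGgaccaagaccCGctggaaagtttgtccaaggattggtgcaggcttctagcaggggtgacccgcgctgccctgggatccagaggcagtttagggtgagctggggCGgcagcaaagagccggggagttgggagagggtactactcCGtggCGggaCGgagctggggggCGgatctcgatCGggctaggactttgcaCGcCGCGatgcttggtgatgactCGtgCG
Tet1, first intron, farther in, chr10:62886179-62886334, minus strand: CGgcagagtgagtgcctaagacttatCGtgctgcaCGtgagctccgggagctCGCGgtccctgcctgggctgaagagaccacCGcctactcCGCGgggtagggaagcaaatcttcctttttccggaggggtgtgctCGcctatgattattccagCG

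The Tet1 start annotated by GENCODE at chr10:62880014 coincides with the first coding base of its transcript, and all 11 cytosines measured there lay in the coding exon, 142 to 420 bp downstream. They had 77.4% methylated reads of 234 in siCon (71.6 to 82.2%) and 83.7% of 326 in siH19 (79.3 to 87.4%). This level exceeded that of 92.6% of promoters, although the start lies in a computed island of 552 bp. Plus-strand cytosines were 17.9 points below their minus-strand partners in siCon (-34.4 to -1.40), and in siH19 the difference was -6.38 points (-15.6 to 2.85).

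RefSeq gives a Tet1 start farther upstream, at 62887324, inside an island of 1587 bp with 92 CpGs. Over the whole island 22.1% of 2982 reads were methylated in siCon and 20.9% of 3476 in siH19, but the island was not uniform. From -235 to 463 bp around the RefSeq start, 5.58% of siCon reads and 5.15% of siH19 reads at 56 cytosines were methylated. From 991 to 1145 bp, 20 cytosines had 58.1% of 940 reads in siCon and 53.9% of 1125 in siH19. The intronic Tet1 stretches printed come from these 2 parts, with 4.14 and 4.95% in the one near the start. Neither of them overlaps an exon. Another Tet1 island, in a later intron (chr10:62865496-62866021), had 173 of 665 reads methylated in siCon and 131 of 524 in siH19, with cytosines from 4.76 to 69.7% over both libraries. The outermost GENCODE start, at 62899118, had no cytosine outside restriction sites.

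Tet2, at chr3:133544390, had 1.22% methylated reads of 1888 in siCon and 1.29% of 2402 in siH19. Of its 76 cytosines, the 66 from -310 to 43 bp had 0.705 and 0.539%, and the 10 from -726 to -642 bp had 5.95 and 10.7%. Tet3 has 2 starts on chromosome 6, both low. At 83456392, the upstream one, 1.68% of 3746 reads were methylated in siCon and 1.31% of 3210 in siH19. At 83441675 the level was 0.525% of 2095 reads and 0.768% of 3644. Another Tet3 island, near the other end of the gene (chr6:83367890-83368487), was methylated at 97.2% of 177 reads in siCon and 98.5% of 133 in siH19, above 98.9% of all islands in the genome.

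The low promoters and the others differed in CpG density, which the choice of genes did not use. The observed to expected CpG ratio of a window is its CpG count over that given by its C and G content. This ratio was 0.492 to 0.915 in the 9 promoters under 10% by summed reads, with Uhrf2 the highest. In the other 4 it was 0.217, 0.222, 0.406 and 0.455. The nearest values were close, 0.492 at the downstream start of Dnmt1 and 0.455 at the short form of Dnmt3a. No such values over all promoters are given here, so whether this is particular to the 9 genes cannot be told. GC content overlapped, at 55.5 to 76.8% against 46.1 to 56.8%. All 9 low promoters had their start in a computed island, as did Tet1, while the other 3 did not. The windows of a gene share a source, so this is a description of 13 windows and not a test.

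**Figure D3:**
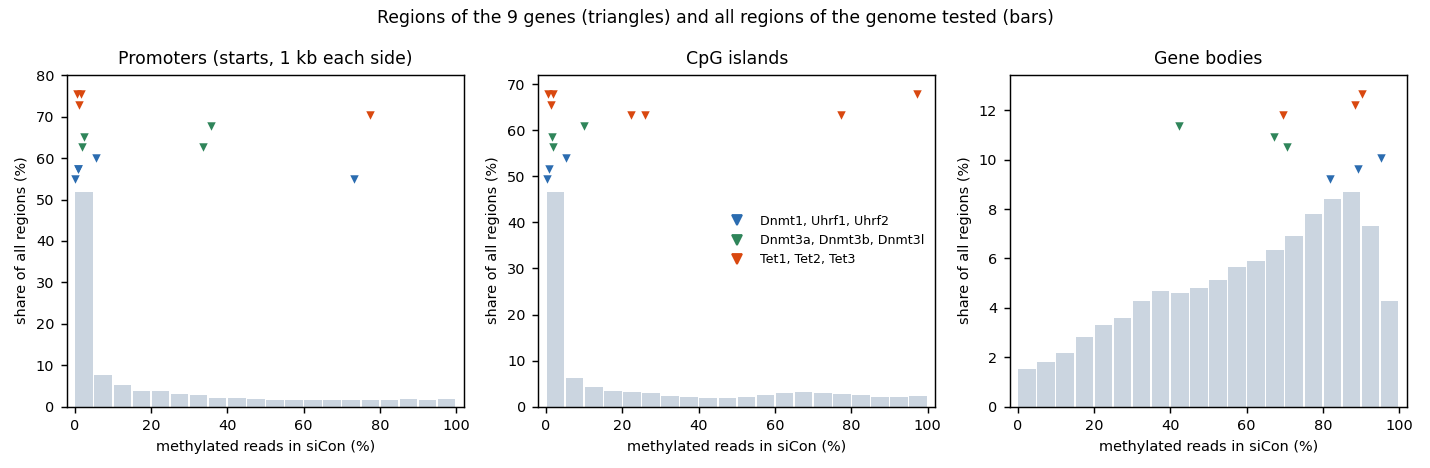
Share of all tested promoters, CpG islands and gene bodies of the genome (bars, y axis in %) by methylated reads in siCon (x axis, %, in steps of 5), with the regions of the 9 genes as triangles in their own rows above, coloured by group. Most promoter triangles stand over the lowest bar, and the Tet3 island stands at the far right with 97.2%.

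In the bodies, that is the genes without their promoter windows and islands, 6 of the 9 genes were over 70% methylated in siCon by summed reads. The order in siCon was Uhrf2 95.3% (91.1 to 97.6%), Tet3 90.3% (89.0 to 91.4%), Uhrf1 89.1% (86.1 to 91.6%), Tet2 88.3% (85.8 to 90.4%), Dnmt1 81.9% (79.7 to 83.9%), Dnmt3a 70.7% (68.4 to 72.8%), Tet1 69.5% (67.3 to 71.7%), Dnmt3b 67.1% (63.7 to 70.3%) and Dnmt3l 42.2% (34.9 to 49.96%). The intervals of Uhrf2, Tet3, Uhrf1 and Tet2 each overlapped with that of the neighbour in this order, as did those of Dnmt3a, Tet1 and Dnmt3b. In siH19 the order was the same except that Dnmt3b, at 69.8%, stood above Dnmt3a at 69.7% and Tet1 at 68.2%. Over the 16280 bodies tested in the genome, 43.3% were over 70% by summed reads in siCon. The order depended on the weighting. By unweighted means of the cytosines in siCon, Dnmt1, at 83.1%, stood above Uhrf1 at 80.7% and Tet2 at 80.5%. Tet1 was then also over 70%, at 71.5%.

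Body cytosines were not all alike. Of the 105 in Tet3, 96 were over 70% in both libraries and 3 under 50%. All 13 of Uhrf2 were over 70%. Of the 28 in Dnmt3b, 16 were over 70% in both and 8 under 50%, and of the 97 in Tet1, 54 and 17. Exonic cytosines of Tet3 had 93.8% methylated reads in siCon against 80.4% in introns, and those of Tet2 had 95.9 against 83.0%. In siH19 the values were 95.5 against 77.7% and 92.7 against 81.8%. The exons were also the higher in both libraries in Dnmt1, Dnmt3a and Dnmt3b. In Tet1 the exons had 69.3% and the introns 69.7% in siCon, and 65.1 and 70.1% in siH19. In Uhrf1 they had 96.1 and 85.3% in siCon but 86.5 and 87.3% in siH19.

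The comparison of siH19 with siCon asked whether methylation of these genes differed after H19 knockdown. It was made per region by the Mantel-Haenszel difference, in which every cytosine has the same weight in both libraries, and a two-sided Cochran-Mantel-Haenszel test stratified by cytosine. P-values were adjusted by the Benjamini-Hochberg method over all promoters, islands or bodies of the genome. Levels summed over reads do not subtract to this difference. Reads of neighbouring cytosines come from the same fragments, so the p-values are too small and the intervals cover counting error only.

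None of the 35 regions of the 9 genes was called with both an adjusted p under 0.05 and 10 points or more between the libraries, in a background of 0.655% of promoters, 0.956% of islands and 0.178% of bodies. At an unadjusted p under 0.05 there were 0 of 13 promoters, 0 of 13 islands and 1 of 9 bodies, against 21.2% of all promoters, 21.5% of islands and 11.6% of bodies. With no minimum difference the count was also 0, in a background of 7.28% of promoters, 7.63% of islands and 0.405% of bodies. When reads were summed over a region and compared by Fisher's exact test, no region reached both limits, but 4 had an adjusted p under 0.05, against 16.9% of all promoters, 13.7% of islands and 19.4% of bodies. They were the promoters of Uhrf2 (3.26 points, adjusted exact p = 1.78e-07) and Dnmt3b (-0.962 points, adjusted exact p = 0.0119), with their islands (adjusted exact p = 1.02e-07 and 0.0402). The summed reads do not hold the share of each cytosine equal between libraries, as described for Uhrf2 above. In the 9 promoters under 10% the differences ran from -0.376 points in Dnmt3b to 0.331 at the downstream start of Dnmt1. Their median size was 0.207 points, beside 0.377 over the 13255 promoters of this class. The 2 intermediate promoters gave 5.37 points for the short form of Dnmt3a and 5.38 points (-5.97 to 16.7) for Dnmt3l, beside a median size of 2.18 in their class. The Tet1 start differed by 3.10 points (-3.35 to 9.56). These intervals do not exclude differences of several points at Dnmt3a, Dnmt3l, Tet1 and the upstream start of Dnmt1.

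**Figure D4:**
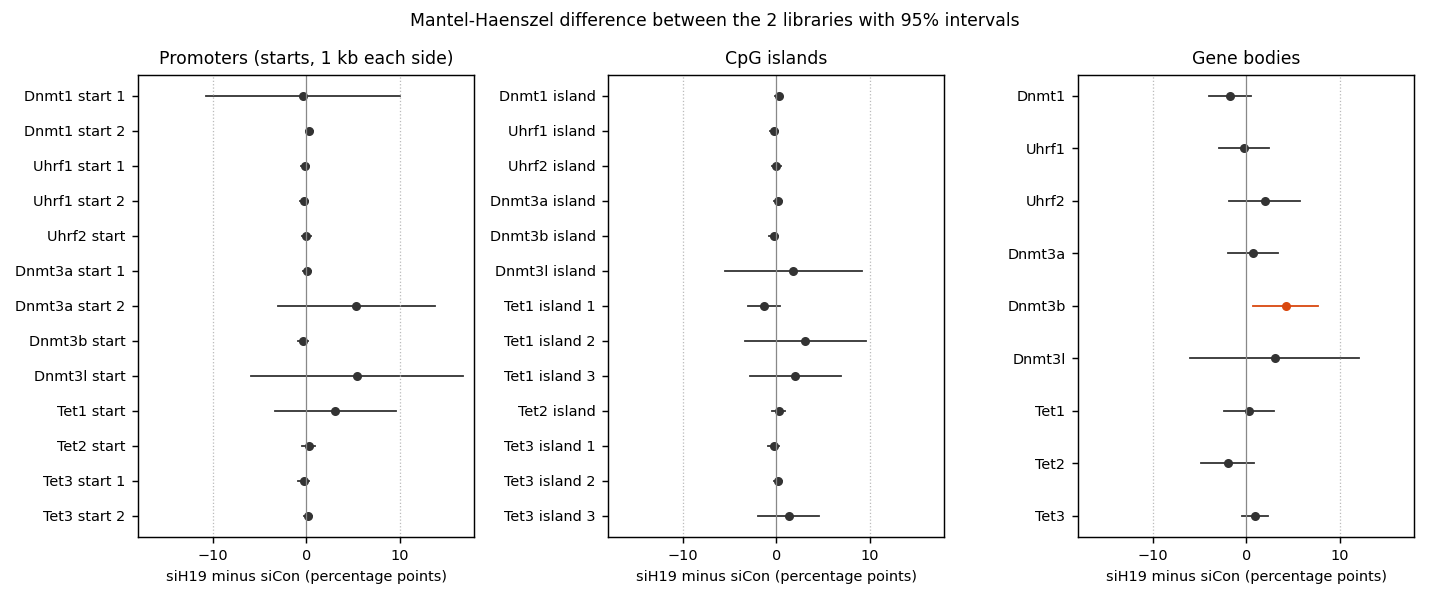
Mantel-Haenszel difference in methylation, siH19 minus siCon (x axis, percentage points), with 95% intervals for each promoter, island and body of the 9 genes. Dotted lines mark 10 points either way, and the body of Dnmt3b, in orange, is the only interval that leaves out 0.

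The body of Dnmt3b was the region with an unadjusted p under 0.05. In siCon 67.1% of its 778 reads were methylated, against 69.8% of 986 with siH19, and the difference was 4.21 points (0.714 to 7.70, p = 0.0168, adjusted p = 0.297 by the Cochran-Mantel-Haenszel chi-square test). Its 11 exonic cytosines stood at 68.8% (siCon) and 78.6% (siH19), with a Mantel-Haenszel difference of 7.95 points (2.09 to 13.8), not tested apart, and its 17 intronic ones gave 1.66 points (-2.67 to 6.00). The difference over the body was 1.36 points with unweighted means of the cytosines, and 2.68 points with summed reads (Fisher's exact p = 0.235). The other bodies ran from -2.002 points in Tet2 to 3.04 in Dnmt3l. The difference was positive in 6 of the 9 bodies, Dnmt3a, Dnmt3b, Dnmt3l, Tet1, Tet3 and Uhrf2, with unadjusted p-values from 0.0168 to 0.814.

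Single cytosines were compared by Fisher's exact test, and 10 of the 1440 were strongly changed, that is p under 0.05 and at least 33 points, 6 higher and 4 lower in siH19, in a background of 0.986% of all cytosines. None had an adjusted p under 0.05, as 120 did in the genome, and 26 had an unadjusted p under 0.05, 12 higher and 14 lower. At CpGs measured on both strands, the share with an unadjusted p under 0.05 was 1.88% on the plus and 2.05% on the minus strand. Over the genome it was 2.55 and 2.52%. Of the strongly changed cytosines, Tet1 and Dnmt3a held 3 each, Dnmt1, Dnmt3l, Tet2 and Tet3 1 each, and Dnmt3b, Uhrf1 and Uhrf2 none. In all, 83.7% of the cytosines differed by less than 10 points, against 76.2% in the genome, from 54.2% in Dnmt3l to 93.9% in Uhrf1.

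The 5 strongly changed cytosines that had 10 or more reads in both libraries lay in Tet3, Dnmt1, Tet1 and Dnmt3l. In Tet3 the plus-strand cytosine at chr6:83395013, in an intronic repeat, had 2 of 30 reads methylated in siCon and 20 of 38 in siH19 (Fisher's exact p = 5.58e-05, adjusted p = 0.213), and its partner on the other strand was not measured. In Dnmt1 the cytosine at chr9:20958911, one of those printed above, went from 6 of 16 to 28 of 34 (exact p = 0.00290), while its partner went from 100 to 91.7%. In Tet1 2 cytosines of 1 intron moved in opposite directions. The one at chr10:62842152 went from 18 of 19 to 18 of 31 (exact p = 0.00795) and the one at 62842097 from 5 of 19 to 20 of 31 (exact p = 0.0186). Their partners differed by -20.7 and -1.61 points. In Dnmt3l the minus-strand cytosine at chr10:78042530 went from 6 of 22 to 14 of 23 (exact p = 0.0361) and its partner from 35.1 to 48.8%.

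**Figure D5:**
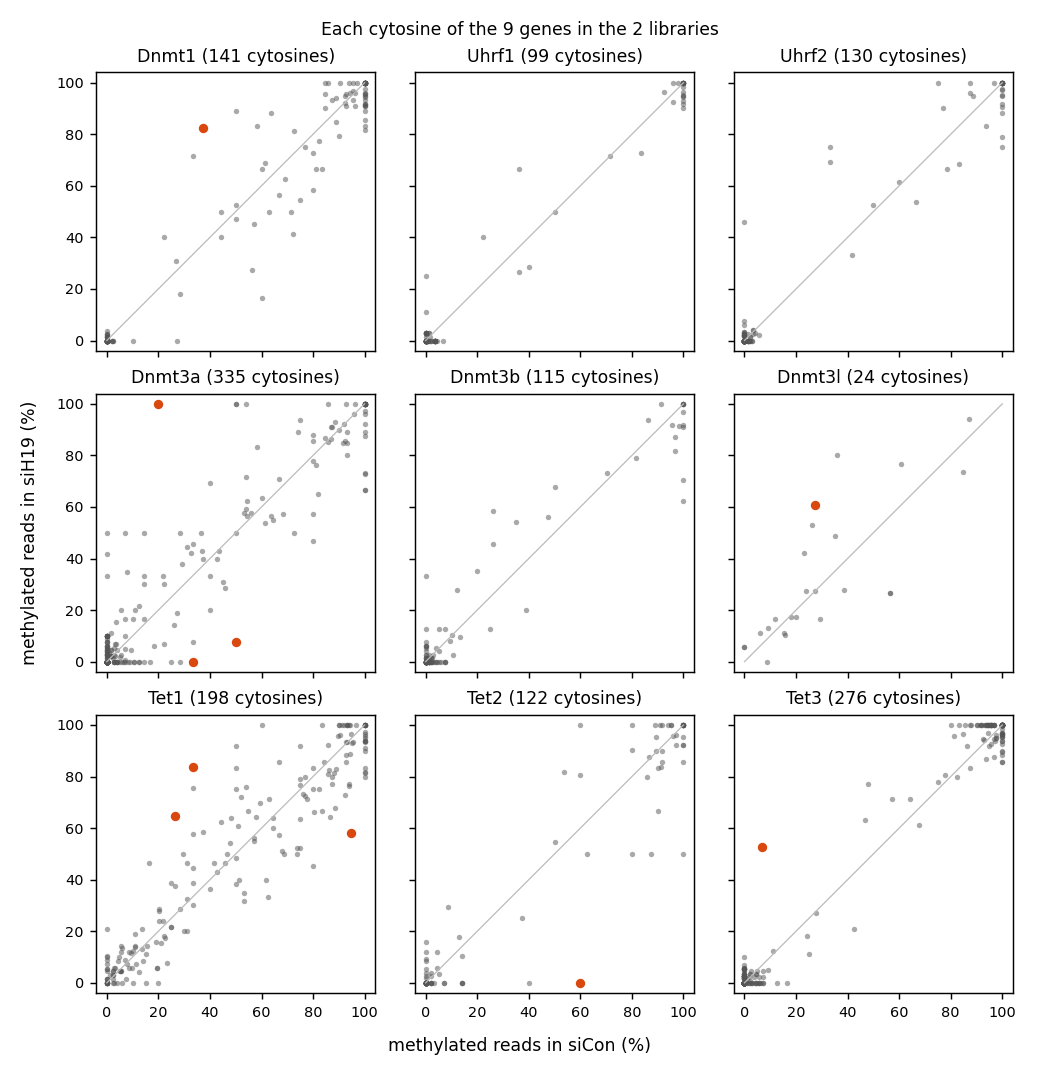
Methylated reads of each cytosine in siCon (x axis, %) and siH19 (y axis, %), 1 panel per gene, with the diagonal of equal levels and the 10 strongly changed cytosines in orange. Points of Uhrf1, Uhrf2 and Tet3 gather at the 2 corners, and those of Tet1 and Dnmt3l lie spread along the diagonal.

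Spread inside a library was seen from the 2 strands of a CpG. Over the 584 CpGs of the 9 genes measured on both strands, the strands differed at an exact p under 0.05 in 2.40% of CpGs in siCon and 3.77% in siH19. The libraries differed in 1.88% on the plus strand and 2.05% on the minus strand. Over all 755414 such CpGs of the genome the strands differed in 3.51% in siCon and 3.28% in siH19, and the libraries in 2.55 and 2.52%, so this order was not particular to the 9 genes. The mean size of the difference was 5.29 points between the strands of siCon and 5.67 in siH19, and 4.99 and 4.61 points between libraries. The median size was 1.54 points between the strands of siCon and 2.31 in siH19, and 1.54 and 1.59 points between libraries. By count and by mean the values between libraries were below those between the strands of either library, but by the median they were not below those of siCon. These differences were not tested.

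Cytosines inside the restriction sites had been left out. In the same regions there were 865 of them and 22 were strongly changed, or 2.54%, in a background of 1.93% of all restriction-site cytosines. Of the 22, 4 had an adjusted p under 0.05 by Fisher's exact test, 2 in Dnmt3a and 1 each in Tet2 and Dnmt3l. The share of all restriction-site cytosines with such an adjusted p is not given here. In 17 of the 21 with a measured partner, the partner on the other strand moved the opposite way. Both strands of a CpG in Tet2, in Dnmt3a and in Dnmt1 are among the 22, so these pairs are counted from both sides. The share over the genome is not given here. At a CCGG of the Tet2 promoter (chr3:133544962, minus strand) 1 of 13 reads was methylated in siCon and 20 of 23 in siH19, and its plus-strand partner went from 9 of 11 to 2 of 14. The part that the ends of the fragments play in this was not tested.

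Genes that act beside the 9 were taken as a list of 25 that read methylation, remove it, recruit the enzymes or supply their cofactors, and 24 of them had a measured promoter, 31 in all. None was called, and 6 had an unadjusted p under 0.05, 3 higher and 3 lower, against the 21.2% of all promoters. Their median difference was -0.0120 points, beside 0.104 over the 13 promoters of the 9 genes and 0.0919 over all. Of the 31, 23 were under 10% in siCon. The lowest were Cxxc5, which encodes a CXXC zinc finger protein, at 0.382% in siCon and 0.509% in siH19, and Idh2, the mitochondrial isocitrate dehydrogenase, at 0.386 and 1.04%. The highest were a second start of Mbd3, a subunit of the NuRD complex, at 98.1 and 96.9%, and a second start of Usp7, a deubiquitinase, at 96.7 and 93.4%.

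Marker promoters set these levels in the context of the cells. All 6 promoters of 5 germ line genes were over 70% methylated in both libraries, from 70.7% for Tex101 to 96.4% for Ddx4 in siCon. Of the muscle genes, Ckm and Des were at 2.70 and 3.98% in siCon, Acta1 at 12.8%, Myod1 at 34.1%, Myf5 at 60.6% and Myog at 72.7%, the last measured at 6 cytosines. Expression of the 9 genes and of the markers was not analysed here.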

How the data were processed

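Genomic DNA of 1 siCon and 1 siH19 sample was profiled after digestion with TaqαI and MspI. The authors used Bismark in non-directional mode in a service provider's pipeline, trimmed filled-in nucleotides and took C over C plus T reads as the level. The labels' processing notes name bcl2fastq 1.8.4 and build mm10. Removal of duplicates was not given in the sources used here. The deposited values, per cytosine and strand, were raw counts and a percent in 1 text field, and a score, the fraction times 1000, which the authors gave beside it and which matched the counts in 100% of entries. Reads over cytosines summed to 104999613 in siCon and 106372792 in siH19, and the median depth of the cytosines compared was 24 in both.

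Groups came from the labels. Positions are on GRCm38, and every cytosine joined was a CpG of it. Promoters used GENCODE vM21 basic starts chained within 500 bp, with 1 kb on each side. Islands were computed from 200 bp windows with at least 50% GC and a CpG ratio of at least 0.6, merged, and kept from 500 bp, a minimum set after the files had been seen. Regions needed at least 5 cytosines, which 13 of the 16 islands had. Several islands hold the same cytosines as a promoter window. Levels carry Wilson 95% intervals, which cover counting error only. The Cochran-Mantel-Haenszel test had no continuity correction and the Mantel-Haenszel difference used Sato's variance. All tests were written in Python 3.11.15 with numpy 2.4.6, scipy 1.17.1 and numba 0.67.0 and tested on simulated data. Single cytosines named are the strongly changed ones with 10 or more reads in both libraries, lowest p first, up to 6 in each direction. Pathway genes named are the 2 lowest and 2 highest in siCon. The stretches printed were picked after their levels were seen, outside untranslated parts of exons. The genes and lists were chosen with earlier results of these data known.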

Additional observations from a re-analysis of the deposited data

How the results depend on the processing

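The count of regions called stayed at 0 under every alternative run, including no minimum difference with the main test and, chosen after seeing the data, islands of at least 200 bp. With summed reads it was 0 only with the minimum of 10 points, since the promoters and islands of Uhrf2 and Dnmt3b had an adjusted exact p under 0.05. Regions with an unadjusted p under 0.05 rose from 1 to 5 of 35 with restriction-site cytosines kept. They were 4 without the deepest cytosines or with summed reads, and 2 of 49 with islands of at least 200 bp. The shares over all regions at these settings are not given here. The count of strongly changed cytosines was 10, and 8 CpGs with strands summed, of which 2, in Tet3 and Tet1, were in both. The 8 included 2 CpGs of Uhrf2 and 1 of Uhrf1. It was 5 of 1083 with at least 10 reads per cytosine, 32 of 2305 with restriction-site cytosines kept, 19 with a difference of at least 20 points and 0 with an adjusted p. A share of strongly changed cytosines over all cytosines is given here only for the main setting. Whether the other counts are above or below the genome cannot be told. No difference of a single region with an unadjusted p under 0.05 in the main run changed sign. That of the Dnmt3b body, 4.21 points, ran from 1.36 with unweighted means to 5.33 with islands of at least 200 bp. By the Cochran-Mantel-Haenszel test its p was 0.00125 (adjusted 0.0792) with restriction-site cytosines kept. Without the deepest cytosines it was 0.0474 (adjusted 0.428). Of the other regions, these changed sign, and the cause was not tested. With at least 10 reads they were the short Dnmt3a start (-1.99 points), the Uhrf2 promoter and island (-0.198 each) and the Tet1 body (-0.288). With restriction-site cytosines kept they were the Tet3 starts at 83441675 (-0.230) and 83456392 (0.642) with their islands (-0.216 and 0.642), the Uhrf2 island (-0.00867) and the bodies of Dnmt1 (0.179), Dnmt3l (-0.323), Uhrf1 (0.303) and Uhrf2 (-1.25). With summed reads they were the upstream Dnmt1 start (0.614), the long Dnmt3a start and its island (-0.387 and -0.330), the Tet1 island at 62865496 (-1.02) and the bodies of Dnmt1 (2.70), Dnmt3a (-0.924) and Tet1 (-1.31). The Dnmt3a body gave -0.0495 without the deepest cytosines. With windows of 500 bp the Uhrf1 start at 56303321 gave 0.104 and Tet2 -0.204, and with unweighted means the Uhrf1 body gave 0.440. No paired analysis was possible because each group had 1 sample, and no replicate could be left out.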
